A study of Mus musculus with 8 samples.

Results

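The integrated stress response genes described here are Atf4, Atf5, Atf3, Ddit3, Trib3, Gdf15, Fgf21, Asns, Psat1 and Phgdh, 10 of the 22552 genes in the files. They were chosen by name, with their levels in these same libraries already known, so their differences between fat depots are given as a description, with no p-value for any of them. How many passed a threshold is stated beside the share of all genes that did. The libraries hold ribosome-bound RNA of UCP1-positive cells, the thermogenic fat cells that burn fuel as heat. It was recovered by translating ribosome affinity purification (TRAP), in which a GFP-tagged ribosomal protein is made in cells that use the Ucp1 promoter and polysomes are pulled down with an antibody to GFP. There were 3 libraries from inguinal white adipose tissue (WAT), 2 from perigonadal WAT and 3 from interscapular brown adipose tissue (BAT). All came from female mice of a strain given in the labels as C57B/6 UCP1-TRAP, aged 6 weeks. The mice had been bred at 30 °C, moved to room temperature at weaning (3 weeks) and kept at 4 °C from week 4 for 2 weeks. All libraries analysed here are thus from cold-exposed mice, and the comparison is between depots. The labels do not say whether replicate libraries came from separate animals, so the spread between them may be partly technical.

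The integrated stress response begins when any of several kinases phosphorylates the translation factor eIF2, which slows most protein synthesis while the mRNA of the transcription factor ATF4 is translated more. ATF4, alone or with partners such as CHOP (the product of Ddit3), raises the transcription of genes for amino acid supply and stress adaptation. In brown and beige fat the pathway is known from mitochondrial stress, after which the hormones FGF21 and GDF15 are secreted. Because ATF4 is controlled largely at translation, ribosome-bound Atf4 mRNA is closer to its synthesis than total mRNA is, but the level of a ribosome-bound message is still set by both its abundance and its ribosome load, which cannot be told apart here. In bulk libraries, fewer cells of a type and less RNA per cell cannot be told apart either.

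ATF4 and its partners bind a composite C/EBP-ATF element, and the sequences around the start sites are shown because 4 of the 10 genes hold its core. The core was searched as TGATGNAA on both strands of the 300 bases from 250 before to 50 after each RefSeq start (GRCm38.p6), and 3.97% of 32851 promoters held it. All 10 genes were matched to the RefSeq table, Gdf15, Atf5 and Psat1 with 2 promoters each and the others with 1. A gene was counted if any of its promoters held the core, as did 4.51% of all 27025 genes. The stretches below run 5′ to 3′ on the gene's strand, with the matching 8 bases in capitals.
Fgf21, chr7:45615592-45615659, minus strand: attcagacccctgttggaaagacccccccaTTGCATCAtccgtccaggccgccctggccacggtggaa
Atf3, chr1:191183406-191183473, minus strand: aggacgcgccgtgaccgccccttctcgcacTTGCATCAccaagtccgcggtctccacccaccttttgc
Trib3, chr2:152344028-152344057, minus strand: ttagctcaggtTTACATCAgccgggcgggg
Asns, chr6:7693210-7693262, minus strand: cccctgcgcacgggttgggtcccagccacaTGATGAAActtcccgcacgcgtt
The match began 139 bases before the start in Fgf21, 110 before it in Atf3 and 23 before it in Asns, and at base 15 after it in Trib3. In Fgf21 and Atf3 it was the same 8 letters, on the opposite strand. The full cAMP response element TGACGTCA (1.79% of promoters, 2.03% of genes) and the ER stress response element (0.119% of promoters, 0.137% of genes) matched no window of the 10 genes. In the values that follow, as deposited, the 4 genes with the core did not share a depot pattern. Atf3 was on average lowest in inguinal WAT, Fgf21 lowest in BAT, and Trib3 and Asns overlapped between all depots. After the scaling described below, Atf3, Trib3 and Asns had negative log2 differences from BAT in both white depots. They were -1.60, -0.64 and -0.26 in inguinal WAT and -1.34, -0.79 and -0.67 in perigonadal WAT. Those of Fgf21 were 0.54 and 0.80. Ddit3, Gdf15 and Atf5, without the core in the window, also had negative differences in both white depots.

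Levels are FPKM (fragments per kilobase of transcript, scaled to the mapped fragments of the library), summed over a gene's transcripts. The fragments on annotated transcripts were few, at an estimated 268889 (inguinal replicate 3) to 1185259 (perigonadal replicate 1) per library. These are not the mapped fragments that FPKM is scaled to. At 2 estimated fragments Gdf15 was at 0.686 FPKM in inguinal replicate 3 and 0.688 FPKM in inguinal replicate 2. Fragment numbers of single genes below are estimates too, rounded to whole ones. All 10 genes passed the filter of 1 FPKM in at least 2 of the 8 libraries, Phgdh with exactly 2 such libraries, Fgf21 with 3 and Gdf15 with 4. The FPKM totals per library were not equal, from 75925 in inguinal replicate 3 to 206549 in perigonadal replicate 1. The median gene differed by 0.52 on the log2 scale between perigonadal WAT and BAT, by -0.50 between inguinal and perigonadal WAT, and by 0.03 between inguinal WAT and BAT. The libraries were therefore also scaled by the median of gene ratios, which brought these medians to 0.02, -0.01 and 0.01. Ucp1 itself was at 1417, 1302 and 592.3 FPKM in inguinal WAT, 1593 and 1282 FPKM in perigonadal WAT, and 1410, 1575 and 1313 FPKM in BAT, so every library held the labelled cells' defining transcript.

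**Figure D1:**
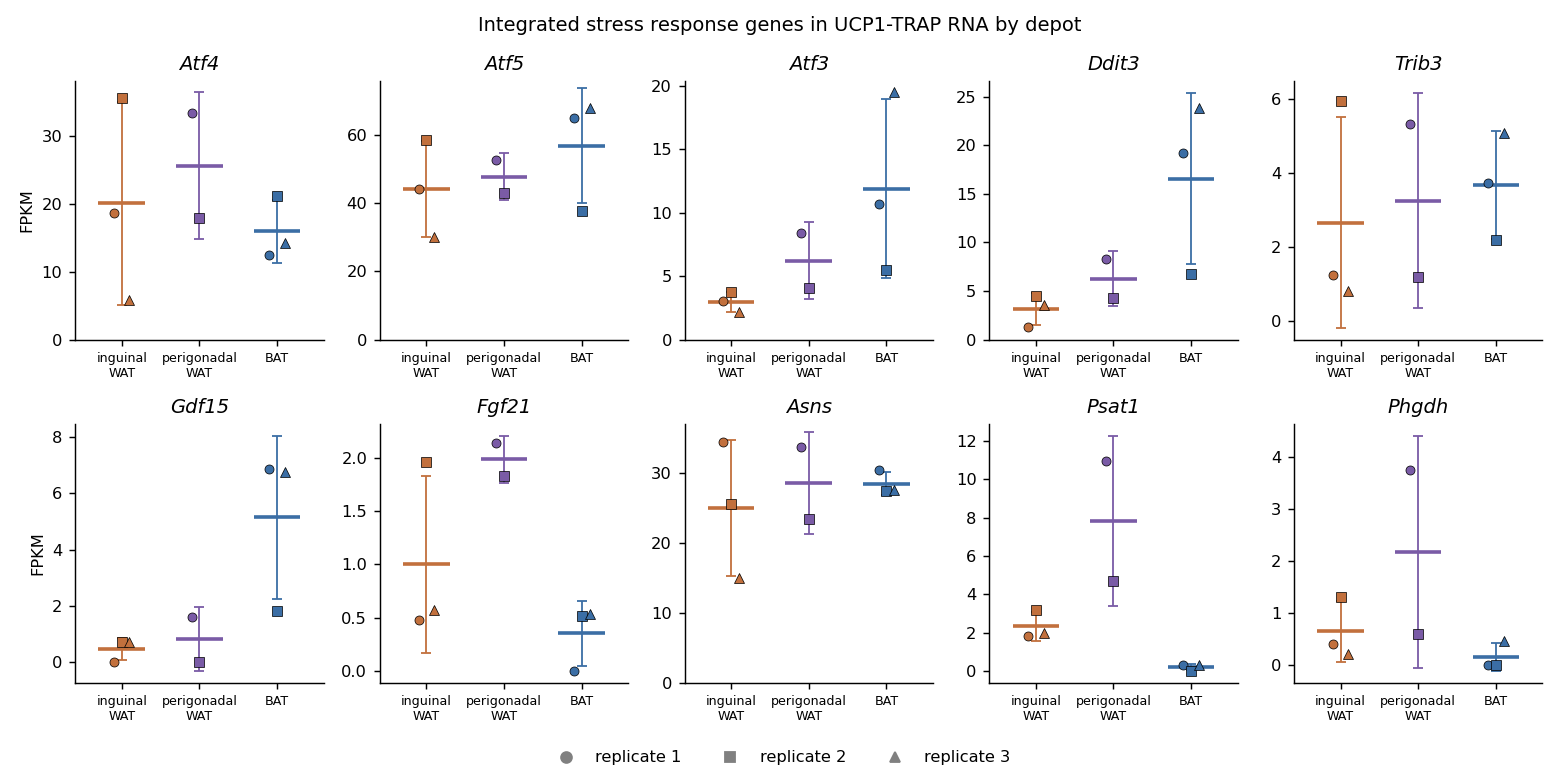
FPKM of each gene in the 8 libraries, on axes of their own. Points are libraries, horizontal bars are group means and vertical bars the SD (n = 3, 2 and 3). Ddit3, Gdf15 and Atf3 are highest in BAT replicates 1 and 3, Psat1 is highest in perigonadal WAT, and Asns in BAT spans only 27.4 to 30.4 FPKM.

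Atf4, the transcription factor at the centre of the response, was at 18.8, 35.7 and 5.89 FPKM in inguinal WAT, 33.4 and 18.0 FPKM in perigonadal WAT, and 12.5, 21.2 and 14.2 FPKM in BAT. The 3 depots overlapped, and the inguinal libraries alone spanned the range of all the others. The log2 difference from BAT was 0.04 ± 0.44 (SE) in inguinal WAT and 0.62 ± 0.49 in perigonadal WAT, and after scaling the perigonadal difference was -0.03 ± 0.37. Inguinal replicate 2 held 113 fragments of the gene and inguinal replicate 3 held 18.

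Atf5, a related factor linked to the mitochondrial stress response, was the most abundant of the 10 genes. It was at 44.1, 58.5 and 30.2 FPKM in inguinal WAT, 52.8 and 43.0 FPKM in perigonadal WAT, and 65.1, 37.7 and 68.2 FPKM in BAT. All depots overlapped, with BAT replicates 1 and 3 at the top. After scaling, the perigonadal difference from BAT was -0.87 ± 0.28 on the log2 scale, against -0.21 ± 0.43 as deposited. The division between the annotated transcripts was not stable: the one of 1736 nt held 88.7% of the gene's FPKM in inguinal replicate 3 and at most 12.2% in every other library, so only the sum is used. Atf5 also overlaps Nup62, on the opposite strand, by 239 bases, and whether the counting used strand is not given in the sources used here.

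Atf3, an inducible factor that both represses and activates stress genes, lies on chr1:192994176-193007212 of the mm9 build, minus strand. It was at 3.01, 3.71 and 2.14 FPKM in inguinal WAT, 8.37 and 4.06 FPKM in perigonadal WAT, and 10.7, 5.51 and 19.5 FPKM in BAT. All inguinal libraries were below all perigonadal and all BAT libraries, whereas perigonadal replicate 1 lay above BAT replicate 2. After scaling both perigonadal libraries (4.56 and 3.52) were below the lowest BAT library (6.11), and the inguinal and perigonadal libraries overlapped. The log2 difference from BAT was -1.57 ± 0.42 in inguinal WAT and -0.75 ± 0.47 in perigonadal WAT, the perigonadal one -1.34 ± 0.40 after scaling. The inguinal and perigonadal libraries, which did not overlap as deposited, differed by -0.82 ± 0.47, and by only -0.26 ± 0.40 after scaling.

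Ddit3, which encodes the pro-apoptotic factor CHOP, lies on chr10:126727849-126733344 of mm9, plus strand. It was at 1.33, 4.49 and 3.59 FPKM in inguinal WAT (15 fragments in all), 8.26 and 4.25 FPKM in perigonadal WAT (27 fragments), and 19.2, 6.74 and 23.8 FPKM in BAT (75 fragments). Every inguinal library was below every BAT library, and perigonadal replicate 1 was above BAT replicate 2 as deposited. After scaling both perigonadal libraries (4.51 and 3.69) were below the lowest BAT library (7.47). The log2 difference from BAT was -2.02 ± 0.43 in inguinal WAT, where it was -2.01 ± 0.50 after scaling. In perigonadal WAT it was -1.17 ± 0.48, or -1.76 ± 0.55 after scaling. The gene overlaps Mars, on the opposite strand, by 68 bases. Mars was at 5.11, 6.00 and 3.60 FPKM in inguinal WAT, 9.16 and 5.19 FPKM in perigonadal WAT, and 3.82, 5.18 and 2.58 FPKM in BAT, so its order across libraries was not that of Ddit3.

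Trib3, a pseudokinase induced by CHOP and ATF4 that feeds back to restrain them, was at 1.23, 5.94 and 0.796 FPKM in inguinal WAT, 5.32 and 1.19 FPKM in perigonadal WAT, and 3.73, 2.19 and 5.09 FPKM in BAT. As deposited, both white depots had 1 library above the highest BAT library beside others below the lowest. After scaling no white library was above the highest BAT library, the highest values being 5.22 in inguinal WAT, 2.90 in perigonadal WAT and 5.75 in BAT, and the groups still overlapped. Its log2 differences from BAT were -0.58 ± 0.42 in inguinal WAT and -0.28 ± 0.47 in perigonadal WAT, or -0.64 ± 0.43 and -0.79 ± 0.48 after scaling.

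Gdf15, a secreted stress hormone that acts on appetite through a hindbrain receptor, lies on chr8:73153293-73155534 of mm9, minus strand. It was at 0, 0.688 and 0.686 FPKM in inguinal WAT (4 fragments in all), 1.60 and 0 FPKM in perigonadal WAT (6 fragments), and 6.88, 1.79 and 6.77 FPKM in BAT (41 fragments). Every library of both white depots was below every BAT library, perigonadal replicate 1 and BAT replicate 2 lying close together. The log2 difference from BAT, on the scale of log2(FPKM + 1), was -1.97 ± 0.40 in inguinal WAT and -1.78 ± 0.45 in perigonadal WAT, or -2.13 ± 0.51 there after scaling. Over pooled fragments, Gdf15 in inguinal WAT was 0.0922 of its BAT level, with an exact 95% interval of 0.0240 to 0.255. In perigonadal WAT it was 0.166 of the BAT level (0.0576 to 0.393), or 0.0979 (0.0340 to 0.232) after scaling, all 6 fragments being from replicate 1. These intervals, from the conditional binomial, cover counting error only and not the spread between libraries. The same holds for the intervals of Fgf21, Psat1 and Phgdh below.

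Fgf21, the other secreted hormone and a target of ATF4, was close to the limit of detection in all depots. It was at 0.473, 1.96 and 0.573 FPKM in inguinal WAT (6 fragments in all), 2.14 and 1.83 FPKM in perigonadal WAT (10 fragments), and 0, 0.516 and 0.538 FPKM in BAT (2 fragments). Both perigonadal libraries were above all BAT libraries, and the inguinal libraries overlapped them. Over pooled fragments the perigonadal level was 5.61 times that of BAT, with an exact 95% interval from 1.20 to 52.7, and the inguinal level was 2.81 times that of BAT (0.502 to 28.5). After scaling the perigonadal level was 3.32 times that of BAT (0.707 to 31.1), an interval that includes no difference. As deposited 48.3% of all genes were above all BAT libraries in both perigonadal ones, as Fgf21 was.

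The enzymes did not move together. Asns, which makes asparagine, was at 34.5, 25.6 and 15.0 FPKM in inguinal WAT, 33.8 and 23.4 FPKM in perigonadal WAT, and 30.4, 27.4 and 27.6 FPKM in BAT. It was the steadiest of the 10 in BAT, where its coefficient of variation was 5.82%, and the depots overlapped as deposited. After scaling the inguinal libraries (28.4, 22.5 and 27.5) were above the perigonadal ones (18.4 and 20.3) and all white libraries were below the BAT ones (32.8, 30.4 and 31.1). After scaling it was different from BAT by -0.67 ± 0.18 on the log2 scale in perigonadal WAT, where the difference as deposited was -0.02 ± 0.45.

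Psat1 and Phgdh catalyse consecutive early steps of serine synthesis from a glycolytic intermediate, Phgdh the first. Psat1 (mm9 chr19:15979613-15999549, minus strand) was at 1.80, 3.20 and 2.00 FPKM in inguinal WAT (30 fragments in all), 10.97 and 4.71 FPKM in perigonadal WAT (85 fragments), and 0.310, 0 and 0.311 FPKM in BAT (2 fragments). The depots did not overlap anywhere, with perigonadal WAT highest and BAT lowest. Over pooled fragments Psat1 in perigonadal WAT was 50.1 times its BAT level (exact 95% interval 13.4 to 420.0). After scaling it was 29.5 times (7.92 to 248), and 64 of the 85 fragments were from perigonadal replicate 1, without which the deposited values gave 28.1 times (6.87 to 247). In inguinal WAT Psat1 was 14.0 times its BAT level (3.55 to 121). Between the white depots the inguinal level was 0.279 of the perigonadal one (0.178 to 0.428), or 0.441 (0.281 to 0.676) after scaling. The log2 difference was -1.33 ± 0.43, or -0.75 ± 0.31 after scaling. The intervals over pooled fragments leave out the spread between libraries.

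Phgdh was at 0.413, 1.31 and 0.223 FPKM in inguinal WAT (9 fragments in all), 3.76 and 0.603 FPKM in perigonadal WAT (25 fragments), and 0, 0 and 0.462 FPKM in BAT (2 fragments). Both perigonadal libraries were above all BAT libraries, but 22 of the 25 perigonadal fragments came from replicate 1. The pooled perigonadal level was 14.5 times that of BAT (3.61 to 126), 8.53 times (2.13 to 74.3) after scaling, and 3.95 times (0.452 to 47.3) without replicate 1. The inguinal libraries overlapped both other depots.

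**Figure D2:**
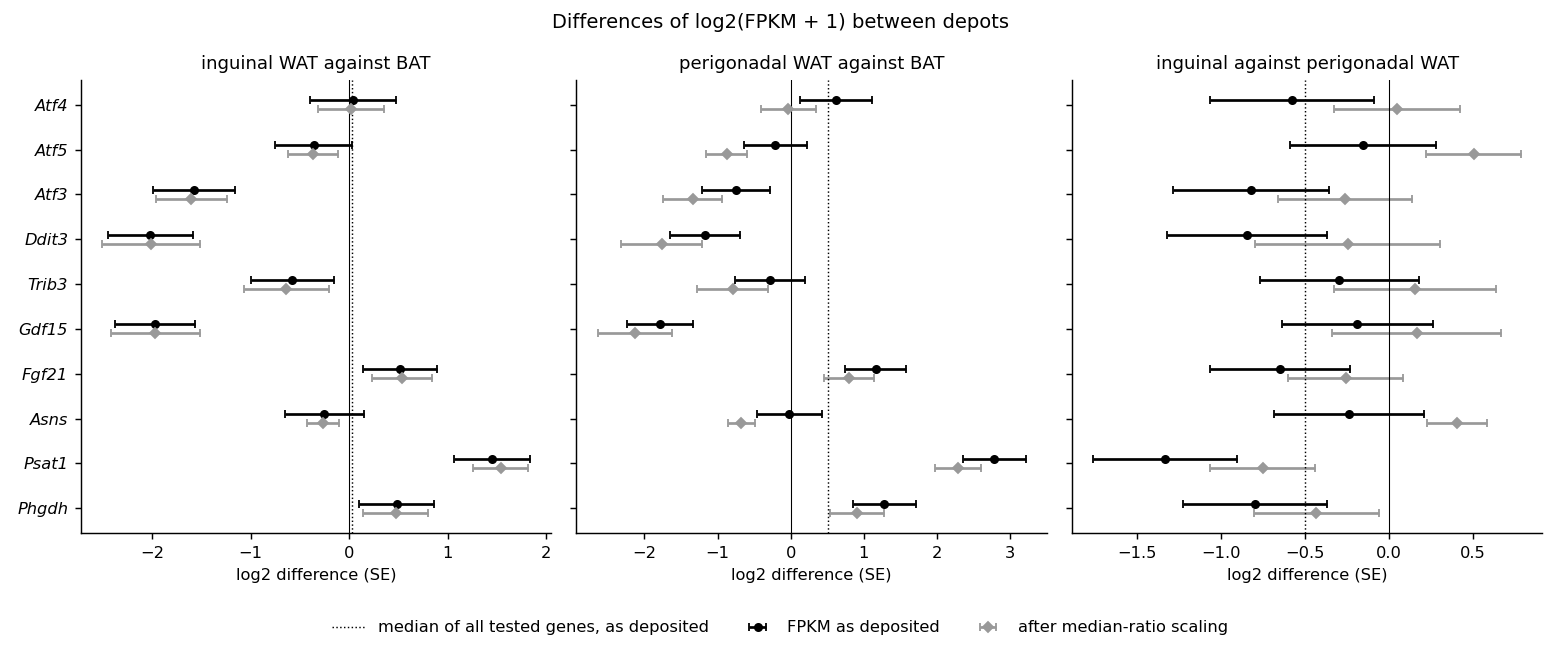
Log2 differences of log2(FPKM + 1) between depots with their SE, for FPKM as deposited (black) and after median-ratio scaling (grey). The dotted line is the median of all 8958 genes tested as deposited, at 0.03, 0.52 and -0.50 in the 3 panels. Ddit3, Gdf15 and Atf3 lie left of that line and Psat1 right of it in both comparisons with BAT.

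Between inguinal WAT and BAT, 4 of the 10 genes passed an adjusted p of 0.05, Psat1 higher and Ddit3, Gdf15 and Atf3 lower, where 2.20% of all 8958 genes tested passed (1.73% higher and 0.469% lower). Between perigonadal WAT and BAT 2 passed, Psat1 higher and Gdf15 lower, where 5.18% of all genes passed (4.91% higher and 0.268% lower). Between inguinal and perigonadal WAT 0 passed, where 0.703% of all genes did (0.301% higher and 0.402% lower). There 1 of the 10 was under an unadjusted p of 0.05 in limma, beside 12.4% of all genes. Because the genes were chosen with these contrasts known, nothing is read from these counts. After scaling the counts were again 1 higher and 3 lower for inguinal WAT against BAT (2.99% and 1.63% of all genes), 1 higher and 1 lower for perigonadal WAT against BAT (2.61% and 3.49%), and 0 for inguinal against perigonadal WAT (0.313% and 0%). They depended on the filter and the pseudocount: the inguinal count was 0 with no filter on low values, and 2 with a minimum of 5 FPKM or a pseudocount of 0.1, while the perigonadal count was 0 with a minimum of 5 FPKM and 1 with no filter, with a pseudocount of 0.1 or with only the groups compared in the fit. They also depended on single libraries. The inguinal count was 0 without inguinal replicate 1, 2 without BAT replicate 1 and 2 without BAT replicate 3, and the perigonadal count was 1 without BAT replicate 1 or BAT replicate 3. With regard to overlap, 1 gene was above and 3 were below BAT in every inguinal library (6.81% and 5.37% of all genes, 12.2% in either direction), and 3 were above and 1 below in both perigonadal libraries (48.3% and 3.72% of all genes, 52.0% in either direction). In the inguinal against perigonadal comparison, 0 were above and 2 below without overlap (1.44% and 27.5% of all genes, 28.9% in either direction). The median of the 10 log2 differences was -0.31 for inguinal WAT against BAT, beside 0.03 over all genes, and -0.11 for perigonadal WAT against BAT, beside 0.52. After scaling these medians were -0.32 and -0.73, beside 0.01 and 0.02. The comparisons with BAT share the same BAT libraries and are not independent of each other.

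In BAT several of the 10 genes were lower in replicate 2 than in the other libraries. BAT replicate 2 was the lowest of the 3 for 7 of the 10 genes, as it was for 33.6% of all expressed genes, and it stayed the lowest for 7 after scaling. Its difference from the mean of replicates 1 and 3 on the log2 scale was -1.53 for Ddit3, -1.49 for Gdf15, -1.25 for Atf3, -0.81 for Atf5 and -0.75 for Trib3. A drop of 1 or more was seen for 199 genes, 2.22% of those tested. Asns, at -0.07, hardly differed, and Atf4 was 0.63 higher in BAT replicate 2 than in the other two. The SD of log2(FPKM + 1) over BAT libraries was larger than that of 98.1% of genes for Ddit3, 97.6% for Gdf15 and 97.2% for Atf3. For Asns it was larger than that of only 10.1%. The 3 genes whose BAT libraries all lay above the inguinal ones as deposited had the 3 largest SDs on that scale among the 10. BAT replicate 2 was the BAT library nearest the white depots for all 3. The ranking depends on the measure: the SD of FPKM itself in BAT was largest for Atf5, at 16.8. The sum of the 10 skeletal muscle markers was lowest in the same replicate, at 5.97, 2.13 and 9.29 FPKM in BAT replicates 1 to 3, against 0.0955 to 0.559 FPKM in inguinal WAT and 1.52 to 1.55 FPKM in perigonadal WAT. Of these markers only Acta1 and Mb passed the filter, 2 were at 0 in every BAT library and 6 at 0 in every inguinal library. The part of these markers in the result was not tested.

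The genes nearest to Ddit3 in pattern over the 8 libraries, by root mean square distance of centred log2(FPKM + 1), were Gdf15 at 0.34, Atf3 at 0.44, Btg2 at 0.54 and BC028528 at 0.55. Those nearest to Gdf15 were Ddit3, Btg2 at 0.45, Myc at 0.52 and Snhg4 at 0.54. Btg2, an early response gene that slows the cell cycle, was at 1.36, 1.21 and 0.782 FPKM in inguinal WAT, 2.65 and 0.559 FPKM in perigonadal WAT, and 6.57, 1.43 and 6.12 FPKM in BAT. It was thus high in the same BAT replicates as Ddit3. Of the 9 immediate early genes tested, Btg2 among them, 6 were lowest of the BAT libraries in replicate 2, as were 33.6% of all expressed genes. Of the 6, Junb (1.595 and 1.708 FPKM), Ier2 (0.984 and 1.10) and Ier3 (1.09 and 1.17) were close in BAT replicates 2 and 1. The median difference of the 9 in replicate 2 from the mean of replicates 1 and 3 was -0.32 on the log2 scale, beside 0 over all genes. Their part in the pattern of Ddit3 was not tested. The FPKM of all 11 listed genes summed to 14.4 to 43.8 in inguinal WAT, 23.0 to 67.9 in perigonadal WAT and 24.9, 33.6 and 36.6 in BAT replicates 1 to 3. The sum in BAT replicate 2 held 17.0 FPKM of Nr4a1, which was at 3.49 and 3.32 FPKM in replicates 1 and 3.

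**Figure D3:**
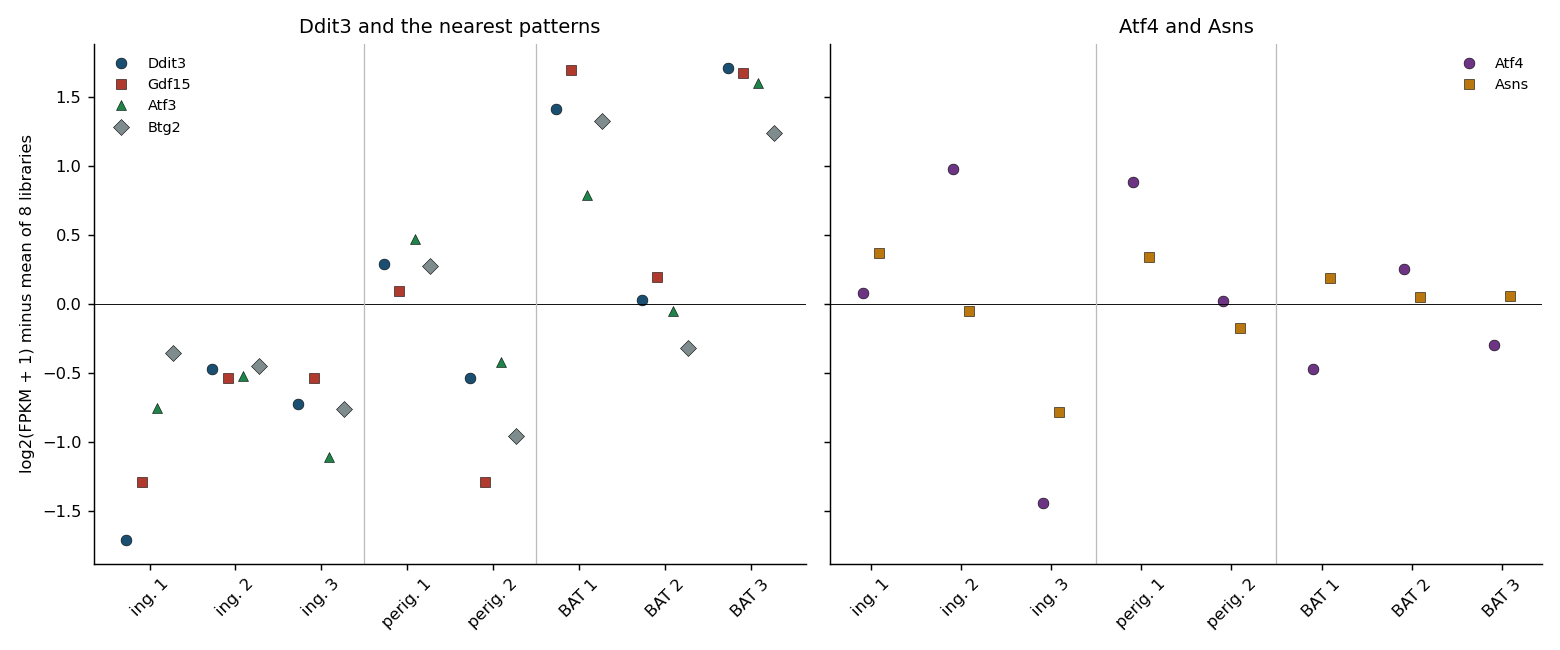
Log2(FPKM + 1) minus its mean over the 8 libraries, by library (inguinal WAT, perigonadal WAT, BAT), for Ddit3, Gdf15, Atf3 and Btg2 on the left and Atf4 and Asns on the right. On the left, BAT replicates 1 and 3 stand above BAT replicate 2 for each of the 4 genes. On the right, Atf4 is highest in inguinal replicate 2 and perigonadal replicate 1.

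Within the white depots, inguinal replicate 2 was the highest of 3 for 9 of the 10 genes, a place it took for 41.0% of all expressed genes, and for 4 of the 10 after scaling (32.6% of all genes). Perigonadal replicate 1 was the higher of the pair for all 10, as it was for 88.2% of all genes, and for 7 after scaling (47.3% of all genes). The 3 genes for which the perigonadal order changed with scaling were Fgf21, Atf5 and Asns. Inguinal replicate 3, the library with the lowest FPKM total, was the lowest for 6 of the 10 as deposited (86.2% of all genes). After scaling it was the lowest for 1, Atf4 (38.4% of all genes). Inguinal replicate 1 was the lowest for 4 of the 10 as deposited (5.44% of all genes) and for 8 after scaling (29.0% of all genes), all but Atf4 and Asns.

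The remaining genes of the pathway were examined as 5 lists of 62 genes in all, 52 of which passed the filter. In inguinal WAT against BAT, 0 of the 52 passed an adjusted p of 0.05 in limma, beside 2.20% of all genes. There 2 were under an unadjusted p of 0.05 in limma, both higher, beside 5.39% of all genes. In perigonadal WAT against BAT 3 rose and 0 fell, beside the 4.91% of all genes that were higher. There 15 of the 52 were higher at an unadjusted p under 0.05, beside 20.4% of all genes. In inguinal against perigonadal WAT 0 rose and 1 fell, beside the 0.402% of all genes that were lower. The perigonadal count against BAT was 1 without perigonadal replicate 1, 5 without perigonadal replicate 2 and 11 without inguinal replicate 3, which enters only through the shared spread. The inguinal against perigonadal count was 0 without inguinal replicate 1, inguinal replicate 3 or perigonadal replicate 1, and 3 without inguinal replicate 2 or perigonadal replicate 2. The median log2 difference of the 52 was 0.20 for inguinal WAT against BAT, beside 0.03 over all genes. For perigonadal WAT against BAT it was 0.64, beside 0.52. After scaling these medians were 0.19 and 0.11, beside 0.01 and 0.02. Of the 52, 34 were then positive in each comparison, beside 50.6% and 51.9% of all genes.

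The eIF2 kinases, phosphatase subunits and eIF2B subunits, which start and end the response, numbered 12, and 0 passed in any comparison. The medians of the 12 were 0.10 for inguinal WAT against BAT and 0.48 for perigonadal WAT against BAT, the second 0.00 after scaling. For inguinal WAT against BAT 0 of the 12 were under an unadjusted p of 0.05 in limma (8.53% of all genes). For perigonadal WAT against BAT 2 were (21.5%), and for inguinal against perigonadal WAT 2 (12.4%). Ppp1r15b, the constitutive phosphatase subunit, was at 12.6, 13.4 and 4.27 FPKM in inguinal WAT, 25.4 and 15.2 FPKM in perigonadal WAT, and 8.53, 8.38 and 8.22 FPKM in BAT, with an adjusted p of 0.143 in limma for perigonadal WAT against BAT. Eif2b5, the catalytic eIF2B subunit, averaged 7.62 ± 3.16 FPKM in inguinal WAT, 9.93 ± 4.08 in perigonadal WAT and 10.4 ± 2.42 in BAT (SD, n = 3, 2 and 3).

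Among the 7 tested genes of serine, one-carbon and amino acid synthesis, 1 rose, in perigonadal WAT against BAT, where 4.91% of all genes were higher. Gpt2, the mitochondrial alanine aminotransferase and a known ATF4 target, was at 3.70, 1.60 and 0.617 FPKM in inguinal WAT, 13.2 and 4.79 FPKM in perigonadal WAT, and 0.151, 0 and 0.527 FPKM in BAT. It rose in perigonadal WAT against BAT by 2.91 ± 0.45 on the log2 scale (limma, adjusted p = 2.28e-06, 0.00382 after scaling), higher in 2 of 2 perigonadal libraries than in any BAT library. Gpt2 was also lower in inguinal than in perigonadal WAT (-1.74 ± 0.45, limma adjusted p = 0.0361), a call that was lost after scaling (0.284), without perigonadal replicate 1 (0.998), without inguinal replicate 3 (0.462) and without inguinal replicate 1 (0.0522). The order perigonadal WAT, inguinal WAT, BAT of its means was that of Psat1, and also of Phgdh, Fgf21 and Atf4. As deposited that order is common. The inguinal difference from perigonadal WAT was positive for 9.30% of all genes, and that from BAT for 53.1%. Psph, which completes serine synthesis after Psat1, averaged 6.86 ± 3.48 FPKM in inguinal WAT, 8.96 ± 3.05 in perigonadal WAT and 3.38 ± 1.20 in BAT (SD, n = 3, 2 and 3), with an adjusted p of 0.120 in limma for perigonadal WAT against BAT. Got1, an aspartate aminotransferase, was at 8.75 ± 1.72, 14.3 ± 1.12 and 9.92 ± 3.36 FPKM in the same groups and passed in no comparison.

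Of 4 tested amino acid transporters 1 rose, in perigonadal WAT against BAT, where 4.91% of all genes were higher. Slc1a5, a carrier of glutamine and other neutral amino acids, was at 103.0 and 31.3 FPKM in perigonadal WAT, against 11.3, 8.81 and 7.01 FPKM in BAT, a log2 difference of 2.55 ± 0.49 (limma, adjusted p = 0.000193, 0.0106 after scaling). The call rested on perigonadal replicate 1, without which the adjusted p was 0.268. Slc3a2, the heavy chain shared by several transporters, was at 35.8 and 22.2 FPKM in perigonadal WAT and 9.38, 8.94 and 16.0 FPKM in BAT (limma, adjusted p = 0.0954).

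The 14 cytosolic tRNA synthetases, many of them ATF4 targets, all had positive differences in both comparisons with BAT, as did 53.1% of all genes in inguinal WAT and 85.3% in perigonadal WAT. Of the 14, 0 passed in either, beside 2.20% and 5.18% of all genes. Beside 8.53% and 21.5% of all genes, 0 and 3 of the 14 were under an unadjusted p of 0.05 in limma. Their median was 0.28 in inguinal WAT, and 0.69 in perigonadal WAT, where scaling left 12 positive (51.9% of all genes) with a median of 0.12. Gars averaged 27.5 ± 5.89 FPKM in inguinal WAT, 34.5 ± 2.50 in perigonadal WAT and 22.0 ± 2.98 in BAT (SD, n = 3, 2 and 3), and Nars averaged 11.2 ± 2.65, 16.1 ± 4.65 and 7.74 ± 0.921 FPKM in the same groups.

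Of the 15 tested other effectors downstream of ATF4 and CHOP, 1 rose, in perigonadal WAT against BAT, where 4.91% of all genes were higher. Vegfa, an angiogenic growth factor, was at 48.8 and 12.8 FPKM in perigonadal WAT and 4.60, 8.34 and 6.57 FPKM in BAT, with a log2 difference of 1.83 ± 0.48 (limma, adjusted p = 0.0110). That call was lost after scaling (0.0750), without perigonadal replicate 1 (0.971) and without BAT replicate 1 (0.0878). Sqstm1, the autophagy receptor p62, was at 29.0, 38.0 and 17.2 FPKM in inguinal WAT, 53.6 and 33.5 FPKM in perigonadal WAT, and 50.7, 20.0 and 57.4 FPKM in BAT. It passed in no comparison, and its BAT libraries were ordered like those of Ddit3, with replicate 2 lowest. Cebpb, a partner of ATF4 and CHOP, was in contrast highest of the BAT libraries in replicate 2, at 58.6, 88.6 and 74.1 FPKM.

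**Figure D4:**
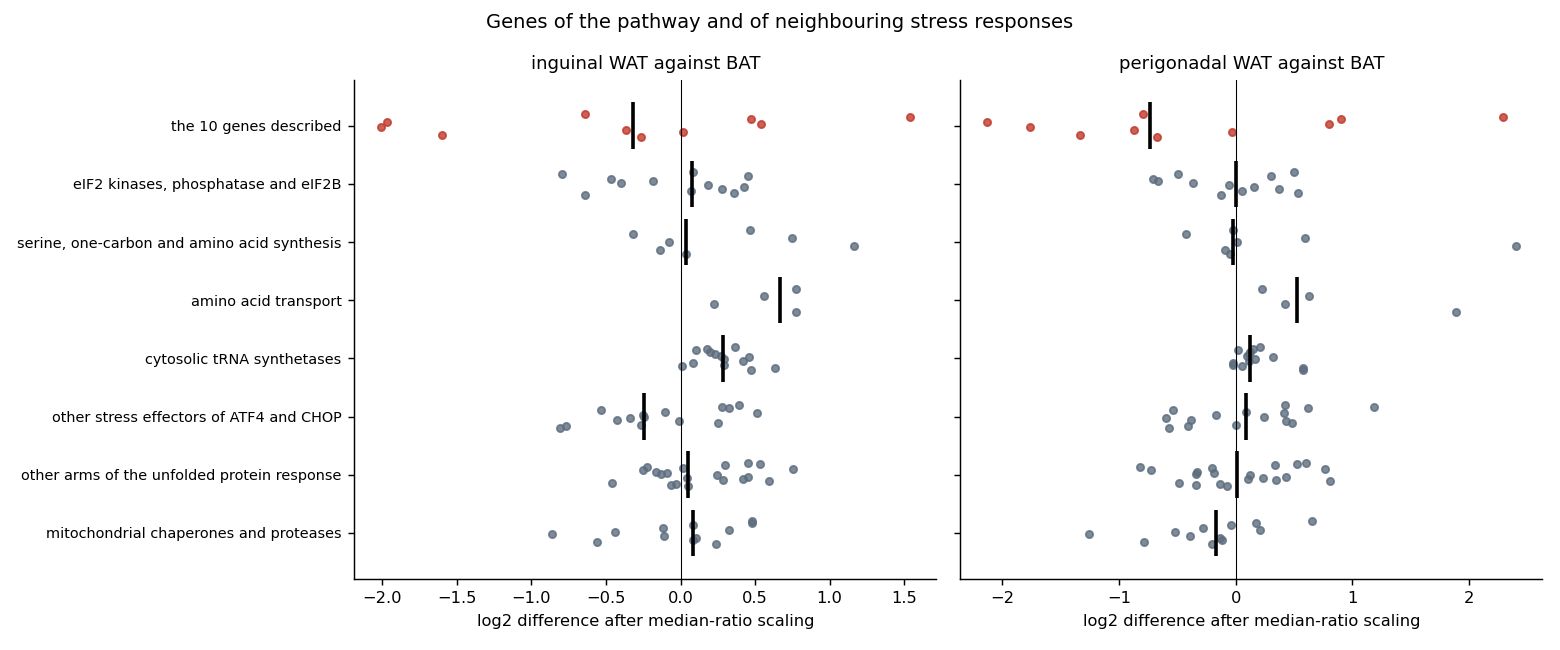
Log2 difference from BAT after median-ratio scaling for each tested gene of the lists, inguinal WAT on the left and perigonadal WAT on the right. Each point is a gene and the vertical bar is the list's median. The 10 genes described spread from -2.01 to 1.54 in inguinal WAT, wider than each of the other lists, whose medians lie between -0.25 and 0.67. The 10 were chosen with their differences known, so nothing is read from that width.

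The other arms of the unfolded protein response, chosen as a neighbouring pathway, had 1 gene of 20 that passed, in perigonadal WAT against BAT, where 5.18% of all genes did. Derl1, a component of protein degradation from the endoplasmic reticulum, rose in perigonadal WAT (79.3 and 63.5 FPKM, against 26.1, 24.3 and 24.3 FPKM in BAT, log2 difference 1.48 ± 0.44, limma adjusted p = 0.0321). The call was lost without any 1 of the 5 libraries compared, at adjusted p between 0.0724 (without perigonadal replicate 2) and 0.649 (without perigonadal replicate 1), with 0.114, 0.129 and 0.129 without BAT replicates 1, 2 and 3. After scaling the difference was 0.81 (limma, adjusted p = 0.0313). With the replicate number as a block it was 1.27 (limma, adjusted p = 0.0512), past the threshold no longer. Calr, a chaperone of that compartment, passed in no comparison and averaged 45.5 ± 13.2 FPKM in inguinal WAT, 58.5 ± 13.1 in perigonadal WAT and 46.4 ± 8.93 in BAT (SD, n = 3, 2 and 3). The 12 mitochondrial chaperones and proteases had 0 that passed in any comparison as deposited. Beside 8.53%, 21.5% and 12.4% of all genes, 1, 1 and 0 of the 12 were under an unadjusted p of 0.05 in limma. After scaling 1 was lower in inguinal WAT than in BAT, the chaperonin subunit gene Hspe1 (-0.86 ± 0.17, limma adjusted p = 0.0198). In perigonadal WAT against BAT 2 were lower after scaling (3.49% of all genes), Hspe1 (-1.26 ± 0.19, limma adjusted p = 0.00500) and the protease subunit gene Clpp (-0.79 ± 0.18, limma adjusted p = 0.0280). Hspa9 averaged 170 ± 45.4 FPKM in inguinal WAT, 227 ± 54.8 in perigonadal WAT and 154 ± 22.1 in BAT, and Hspd1 averaged 82.2 ± 25.5, 104.8 ± 9.70 and 85.9 ± 9.24 FPKM in the same groups (SD, n = 3, 2 and 3). Of the receptor genes for GDF15 and FGF21, Klb and Fgfr1, which together form the FGF21 receptor, passed the filter. Klb averaged 5.01 ± 1.36 FPKM in inguinal WAT, 8.43 ± 2.42 in perigonadal WAT and 4.19 ± 1.85 in BAT, and Fgfr1 averaged 4.20 ± 2.53, 6.50 ± 2.21 and 3.58 ± 0.350 FPKM (SD, n = 3, 2 and 3), and neither passed.

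Markers of other cells were not equally low in all depots. Endothelial markers summed to 8.49 to 14.2 FPKM in perigonadal WAT, with 0 of 8 at 0 in both libraries, and to 2.50 to 3.64 FPKM in BAT, where Tie1 and Emcn were at 0 in all libraries. This list was highest in the depot where Psat1, Phgdh, Gpt2 and Slc1a5 were highest, and its part in their differences was not tested. Mammary luminal markers summed to 96.6 to 123 FPKM in inguinal WAT, 2.27 to 3.10 in perigonadal WAT and 7.02 to 22.2 in BAT, where 10 of 12 were at 0 in all libraries. Basal and myoepithelial markers summed to 11.5 to 31.1 FPKM in inguinal WAT and 4.999 to 5.76 in perigonadal WAT, and 6 of 6 were at 0 in BAT. Smooth muscle markers summed to 47.6 to 154 FPKM in inguinal WAT, 9.57 to 16.6 in perigonadal WAT and 6.95 to 8.33 in BAT. These 3 lists were highest in inguinal WAT. Macrophage markers, 11 of 12 in the files, summed to 5.65 to 8.43 FPKM in inguinal WAT, 7.18 to 15.0 in perigonadal WAT and 4.61 to 8.93 in BAT. Brown and pan-adipocyte markers summed to 3954 to 8032 FPKM in inguinal WAT, 8111 to 11840 in perigonadal WAT and 6535 to 7618 in BAT. All these sums are of FPKM as deposited, and the order of depots can change with scaling. Of the 12 brown and pan-adipocyte markers, 10 had positive perigonadal differences from BAT as deposited (85.3% of all genes). After scaling 5 did (51.9% of all genes), and the median of the 12 went from 0.38 to -0.28. The part of these lists in the differences was not tested.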

How the data were processed

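The deposited files list transcripts with FPKM values that the authors made with TopHat and Cufflinks on mm9, per the submitters' processing notes (versions not given in the sources used here). FPKM was summed over the transcripts of each gene (28702 transcripts, 22552 genes). Depth is not stated. For genes with a single transcript, fragments were estimated from the FPKM and its upper confidence bound, taken as counting error. Of the estimates under 30, 81.7% to 90.5% per library were whole within 0.05. Their ratio to FPKM and transcript length gave the estimated fragments per library. It also gave those of Ddit3, Atf5 and Psat1, which were rounded. The intervals over pooled fragments treat all these estimates as counts. Genes reaching 1 FPKM in 2 or more libraries, other than those with no transcript of 300 nt or longer, were fitted on log2(FPKM + 1) with limma 3.58.1 in R 4.3.3, with a variance trend, 3 groups in 1 model over 8 libraries, two-sided, Benjamini-Hochberg over 8958 genes. A difference on this scale understates that of low genes. The members and lists were chosen with earlier results of these data known. Named were all 10 members; of each pathway or comparison list, the 4 called genes with the highest mean FPKM in each comparison and, with fewer than 2 called, its 2 most abundant; and the 4 nearest patterns to Ddit3 and to Gdf15. Genes named beyond that rule (Mars, Nup62, Nr4a1, Hspe1, Clpp and single markers) were chosen after their values were seen. On data simulated for inguinal WAT against BAT with 8958 genes, 56% of 100 genes changed by 1.5 on the log2 scale and 94% of 100 changed by 3 were recovered. For perigonadal WAT against BAT it was 24% and 91%, and for inguinal against perigonadal WAT 33% and 91%. The changed genes were drawn from those averaging at least 3 FPKM, a level that Gdf15, Psat1, Fgf21 and Phgdh do not reach. The simulated libraries had no shift between them, unlike the real ones. Same-numbered libraries did not deviate together in every pair (correlation of deviations 0.0804 to 0.126 for inguinal WAT with BAT, -0.0871 to -0.0136 otherwise), so no block was used. Alternatives were other pseudocounts, filters, scalings, models and leaving out each library. Promoter sequences are from RefSeq (GRCm38.p6); gene positions are from the files (mm9). Python 3.11.15, pandas 2.3.3, numpy 2.4.6 and matplotlib 3.10.9 were used.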

Additional observations from a re-analysis of the deposited data

How the results depend on the processing

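Of 555 alternative values of the log2 differences of the 10 genes, 519 moved by less than the spread between replicates, 36 moved further and 0 reversed a called difference. Many of the 555 could not move, since a change of filter, variance trend or group not compared leaves the difference itself unchanged. Only a difference called in the main fit could count as reversed. These counts are therefore no measure of robustness. The median over the 10 genes moved to -0.73 for perigonadal WAT against BAT after median-ratio scaling, which removes the shift of the FPKM totals. Leaving out single libraries gave medians from -0.58 to -0.03 for inguinal WAT against BAT, -0.35 to 0.36 for perigonadal WAT against BAT and -1.03 to -0.15 for inguinal against perigonadal WAT. The count of pathway genes called was 0 for inguinal WAT against BAT under every alternative run. For perigonadal WAT against BAT it was 3, and 0 with no filter on low values, and from 1 (without perigonadal replicate 1) to 11 (without inguinal replicate 3) when single libraries were left out, with 5 without perigonadal replicate 2. For inguinal against perigonadal WAT it was 1, and 0 with a pseudocount of 0.1, no filter, quantile normalization, short genes retained, scaling by median ratios, a fit of only the groups compared or no variance trend, and 3 with a pseudocount of 5. There, leaving out single libraries gave 0 to 3: 0 without inguinal replicate 1, inguinal replicate 3 or perigonadal replicate 1, and 3 without inguinal replicate 2 or perigonadal replicate 2. The cause of these changes was not tested. With the replicate number as a block, the pathway counts were 0, 3 and 1, unchanged, Derl1 of the neighbouring list was no longer called (limma, adjusted p = 0.0512), the medians of the 10 genes -0.31, -0.22 and -0.50, and the calls over all genes 280, 418 and 88, against 197, 464 and 63 without it. Each inguinal library correlated best with the BAT library of its own number, a hint from the data and not from the design. Fgf21, Phgdh, Psat1 and Gdf15 rest on an estimated 2 to 6 fragments in the groups where they are lowest. Smaller differences in them were therefore not detectable.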
